A study of Mus musculus with 12 samples.

Results

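The genes described here encode 8 G protein-coupled receptors that guide B cells through lymphoid tissue: the chemokine receptors Ccr6, Ccr7, Cxcr3, Cxcr4 and Cxcr5, the oxysterol receptor Gpr183 (also called EBI2), and the sphingosine-1-phosphate receptors S1pr1 and S1pr4. They were chosen by name as receptors of B cell homing and egress, and they are 8 of the 37991 genes in the count table. The samples are splenic resting B cells of mice aged 8 weeks per the labels, with RNA sequenced before activation (0 h) and after 3 h with anti-IgM + IL-4, with 3 replicates in each of 4 groups and 12 samples in all. The Runx1 c-k/o or knockout groups (labelled Runx1-KO) came from Runx1 fl/fl mice crossed with a Cd23-Cre transgenic line, and the Cre-only groups (labelled CD23-iCre) carried the Cre transgene without the floxed allele, so that Cre was present in every group. The CD23 promoter first drives Cre at the transitional stage, so exon 4 of Runx1 is deleted late in B cell maturation and the earlier stages develop with an intact gene. Cells were purified by a negative-selection kit, which leaves B cells behind by removing other cell types and CD43+ cells. The labels name no batch and do not say whether a replicate is 1 mouse or a pool.

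A naive B cell finds its place by the balance of its chemoattractant receptors. CXCR5 draws it into the follicle toward CXCL13, CCR7 draws it to the border of the T zone toward CCL19 and CCL21, and GPR183 draws it to the outer and interfollicular zones toward 7α,25-dihydroxycholesterol, an oxysterol. S1PR1 lets it leave the organ toward the sphingosine-1-phosphate of blood and lymph, CXCR4 holds cells near CXCL12, and engagement of the B cell receptor is known to redirect these receptors within hours.

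Total counts ranged from 14442251 to 23641552 per sample. Levels are given as normalized CPM, in which the library size is scaled by TMM. A floor of 3 counts lay between 0.127 and 0.208 CPM, and floors and counting intervals cover counting error only. CPM is a share of each library, so total RNA per cell was not measured here. Of all genes, 13538 passed the edgeR filter on low counts and were tested, and all 8 members passed. A gene was called at an adjusted p under 0.05 in the quasi-likelihood F test of edgeR with Benjamini-Hochberg adjustment over the 13538 genes, and ± marks the SD of 3 samples. An exact permutation test of 3 against 3 samples cannot go below p = 0.1 and was not used.

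In the Runx1 c-k/o cells, 1 library at each time stood apart from its replicates. Replicate 2 at rest differed from the others by a chi-square per degree of freedom of 41.9 and 34.2, against 5.46 between those others. Replicate 1 at 3 h differed by 68.2 and 95.6, against 15.6 between the others, whereas the pairs of Cre-only libraries lay between 3.48 and 6.51. Where a receptor's call changes without these libraries, both values are given. An alternative fit held 1 factor of unwanted variation found by RUVs, and this factor followed activation, at 0.150 to 1.04 in the resting and −2.08 to −0.376 in the 3-h libraries. At each time its lowest value was that of the library that stood apart. The others lay at 0.941 to 1.04 at rest and −0.740 to −0.376 at 3 h. Activation effects in that fit are shared with the factor, so a call lost or gained there is not like one lost in the other alternatives.

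Runx1 itself was read first as a check of the labels. At rest the 3 Cre-only samples held 83.6, 81.8 and 86.7 CPM and the 3 knockout samples 101, 95.7 and 103 CPM. At 3 h these were 38.5, 37.0 and 34.9 CPM against 47.3, 70.6 and 74.5 CPM. Runx1 was thus higher in every knockout sample, and was called at 3 h (log2 fold change 0.80, edgeR adjusted p = 0.00769) and not at rest (0.25, edgeR adjusted p = 0.548). Reads on every exon are pooled here, and loss of 1 exon need not lower their number, so the values are no check of the deletion. The paper reports that RUNX1 protein was missing from mature resting B cells of the c-k/o mice.

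The cells carried the mRNAs of mature B cells. Cd79a, which encodes a chain of the B cell receptor complex, stood at 2077 CPM in resting Cre-only and 2227 CPM in resting knockout cells, and the follicular marker Fcer2a, which encodes CD23, stood at 1097 and 997 CPM. The T cell markers Cd3e, Cd3d, Cd3g, Cd8a and Thy1 did not exceed 17 counts in any library. The other genes of that list were higher. At rest Lck stood at 34.9 CPM in Cre-only and 31.2 CPM in knockout cells, Cd5 at 3.66 and 3.79 CPM, and Cd4 at 2.84 and 2.73 CPM. The NK cell list summed to at most 3.81 CPM in any library. The myeloid list summed to 267 to 325 CPM in the resting Cre-only and 233 to 452 CPM in the resting knockout libraries, with Csf1r as its most abundant gene.

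At rest, Ccr7 and Cxcr4 stood far above the other receptors. Per kilobase of exon, the resting Cre-only cells held 673 CPM of Ccr7, 634 of Cxcr4, 154 of S1pr1, 114 of Cxcr5, 73.2 of Gpr183, 38.5 of Ccr6, 23.4 of S1pr4 and 0.417 of Cxcr3. The 3 samples of Ccr7 and Cxcr4 overlapped, and every other pair of neighbours in this order lay apart. In resting knockout cells the order per kilobase was the same except that S1pr4 (25.6) stood above Ccr6 (12.8), and no neighbours overlapped. The plot of levels per kilobase shows this order and its change on activation.

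**Figure D1:**
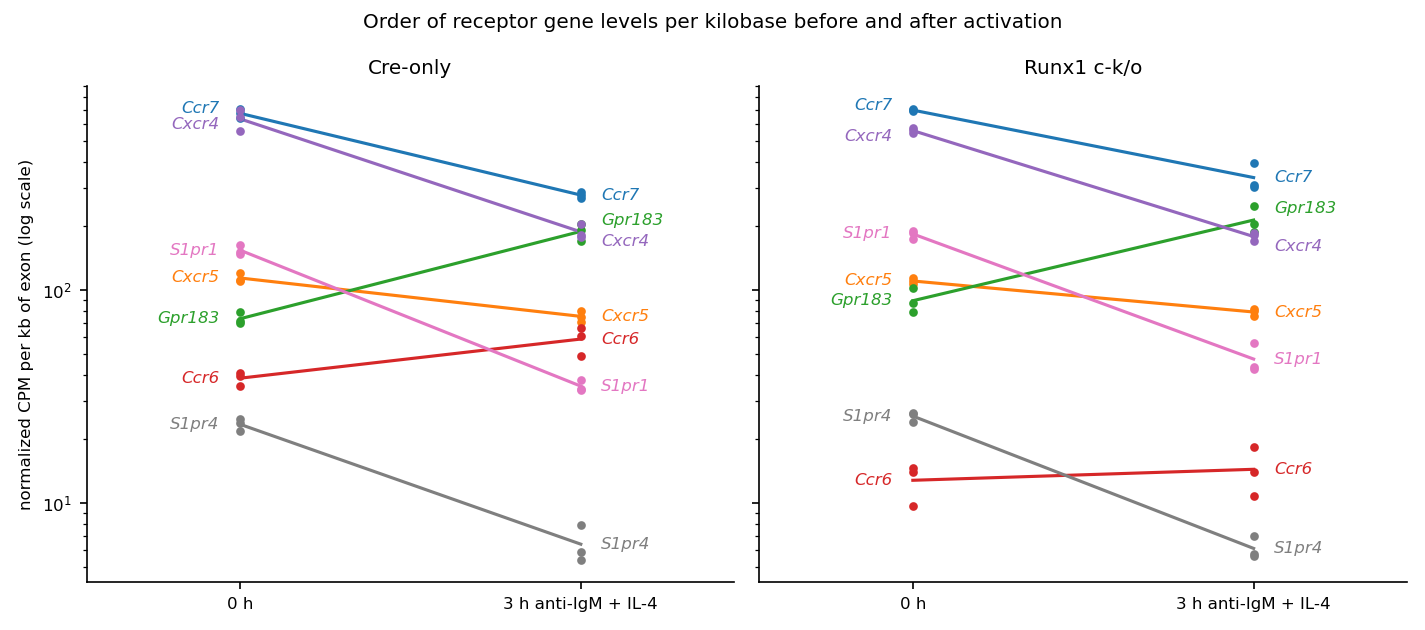
Levels of 7 receptor genes in normalized CPM per kilobase of exon (log axis) at 0 h and after 3 h with anti-IgM + IL-4, in Cre-only (left) and Runx1 c-k/o cells (right); points are the 3 samples of a group and lines join group means, and Cxcr3, under 1 CPM per kilobase, is left out. Gpr183 rises to overlap Cxcr4 in Cre-only cells and passes it in Runx1 c-k/o cells, S1pr1 and S1pr4 fall most steeply, and Ccr6 is the lowest of these lines in resting Runx1 c-k/o cells.

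The homing receptors differed between 0 h and 3 h in both genotypes, a comparison called activation here. No group was cultured for 3 h without anti-IgM + IL-4. Effects of anti-IgM, of IL-4 and of culture itself therefore cannot be told apart. In Cre-only cells all 8 members were called, where 75% of all tested genes were: 2 rose, Gpr183 and Ccr6, against 38.6% of all tested genes, and 6 fell, Ccr7, Cxcr5, Cxcr4, Cxcr3, S1pr1 and S1pr4, against 36.4%. Their median log2 fold change was −1.52, beside 0.03 over all tested genes. The groups did not overlap in any of the 8, which held for 84.4% of all tested genes. In Runx1 c-k/o cells 7 members were called, where 74.3% of all tested genes were: Gpr183 rose, against 37.7% of all genes, and the same 6 fell, against 36.6%. The median was −1.35 beside 0.00, and the groups did not overlap in 7 members, against 72.8% of all tested genes. The share of members called is near that of all genes, so the results lie in the direction and size for each receptor. Summed over the 8 genes, the level went from 3462 to 3741 CPM in the resting Cre-only libraries to 1819 to 1931 at 3 h, and from 3527 to 3566 CPM to 1888 to 2200 in the Runx1 c-k/o libraries.

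**Figure D2:**
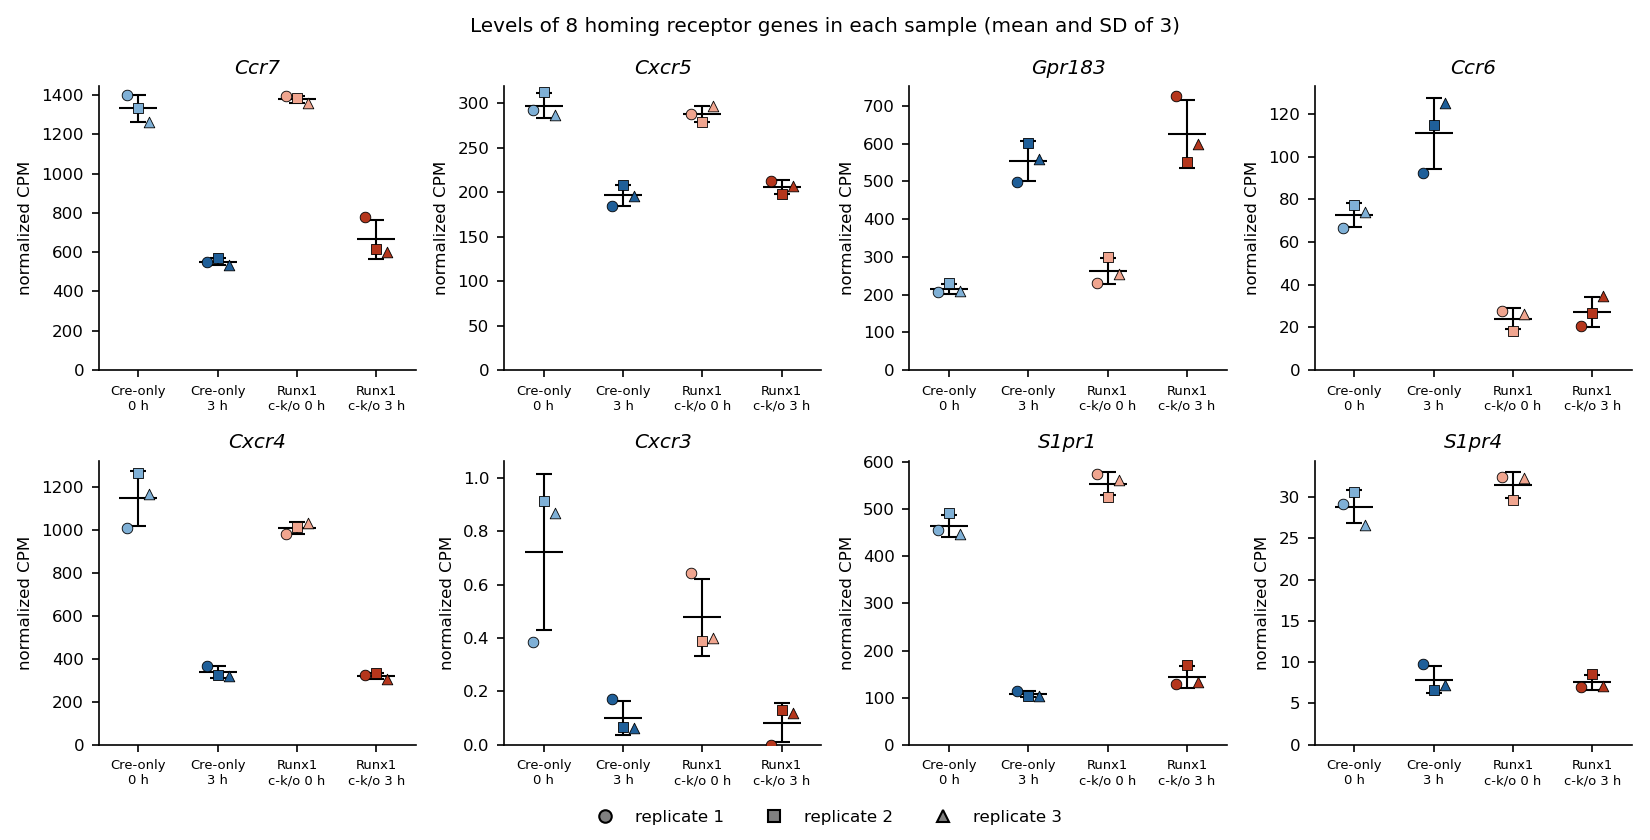
Normalized CPM (linear axis) of each of the 8 receptor genes in each of the 12 samples, by genotype and time; symbols mark the replicate number, and bars give the mean and SD of 3 samples. Gpr183 is higher at 3 h, Ccr7, Cxcr5, Cxcr4, S1pr1 and S1pr4 are lower at 3 h, and Ccr6 separates the genotypes at both times.

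Among the receptors that set position between follicle and T zone, Cxcr5 (ENSMUSG00000047880, mm9 chromosome 9, 44319871 to 44334504, minus strand) changed least. It stood at 292, 313 and 287 CPM in the resting Cre-only group and at 185, 208 and 196 CPM after 3 h. In knockout cells the samples went from 288, 279 and 296 CPM to 212, 198 and 207 CPM. Every resting sample lay above every 3-h sample, and the genotypes overlapped at both times. The fall was 1.51-fold in Cre-only cells (log2 fold change −0.60, SE 0.0798, edgeR adjusted p = 2.17e-05) and 1.40-fold in Runx1 c-k/o cells (−0.48, SE 0.0798, edgeR adjusted p = 0.000136).

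Ccr7 (ENSMUSG00000037944, chromosome 11, 99005510 to 99016391, minus strand), the receptor for the T zone chemokines, fell further. The resting Cre-only samples held 1402, 1333 and 1261 CPM, and those at 3 h held 551, 569 and 532 CPM. Resting Runx1 c-k/o samples held 1393, 1385 and 1358 CPM, and the 3-h samples held 779.7, 616 and 600.3 CPM. The 3-h samples of the knockout were all above those of the Cre-only cells, and the highest, replicate 1, is the library that stood apart. At 3 h Ccr7 was 2.42-fold lower in Cre-only cells (log2 fold change −1.27, SE 0.111, edgeR adjusted p = 5.6e-07) and 2.07-fold lower in Runx1 c-k/o cells (−1.05, SE 0.111, edgeR adjusted p = 3.04e-06).

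Gpr183 (ENSMUSG00000051212, chromosome 14, 122351553 to 122364415, minus strand) moved the other way. It lies inside Ubac2, which is on the opposite strand, and the exons of the genes share 0 bases; Ubac2 went from 60.9 CPM to 18.9 CPM in Cre-only cells, opposite to Gpr183. Its resting level was 205, 231 and 209 CPM in Cre-only and 231, 299 and 255 CPM in knockout samples. After 3 h it was 498, 602 and 560.3 CPM in Cre-only and 726, 550.5 and 599.8 CPM in knockout samples. All 3-h samples were higher than all resting samples, and the genotypes overlapped at each time. The rise was 2.57-fold in Cre-only cells (log2 fold change 1.36, SE 0.132, edgeR adjusted p = 1.43e-06) and 2.39-fold in Runx1 c-k/o cells (1.26, SE 0.132, edgeR adjusted p = 3.01e-06).

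These changes altered the balance among the receptors, given here as log2 ratios of levels per kilobase. Ccr7 to Gpr183 was 3.34, 3.10 and 3.16 in the resting Cre-only group and 0.72, 0.49 and 0.50 after 3 h, that is from 9.20 to 1.48 times as much Ccr7 as Gpr183. In knockout samples this ratio went from 3.17, 2.78 and 2.98 to 0.67, 0.74 and 0.57. The 3-h samples all lay below the resting ones in both genotypes. Ccr7 to Cxcr5 had a mean of 2.57 ± 0.0893 at rest and 1.89 ± 0.0744 at 3 h in Cre-only cells (SD, n = 3), and of 2.66 ± 0.0592 and 2.08 ± 0.175 in knockout cells (SD, n = 3). Cxcr4 to Cxcr5 went from 2.47 ± 0.132 to 1.32 ± 0.186 in Cre-only (SD, n = 3) and from 2.34 ± 0.0501 to 1.18 ± 0.0985 in knockout cells (SD, n = 3). In each of the 3 ratios the resting and the 3-h samples did not overlap, whereas the genotypes overlapped at both times. No p is given for the ratios.

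**Figure D3:**
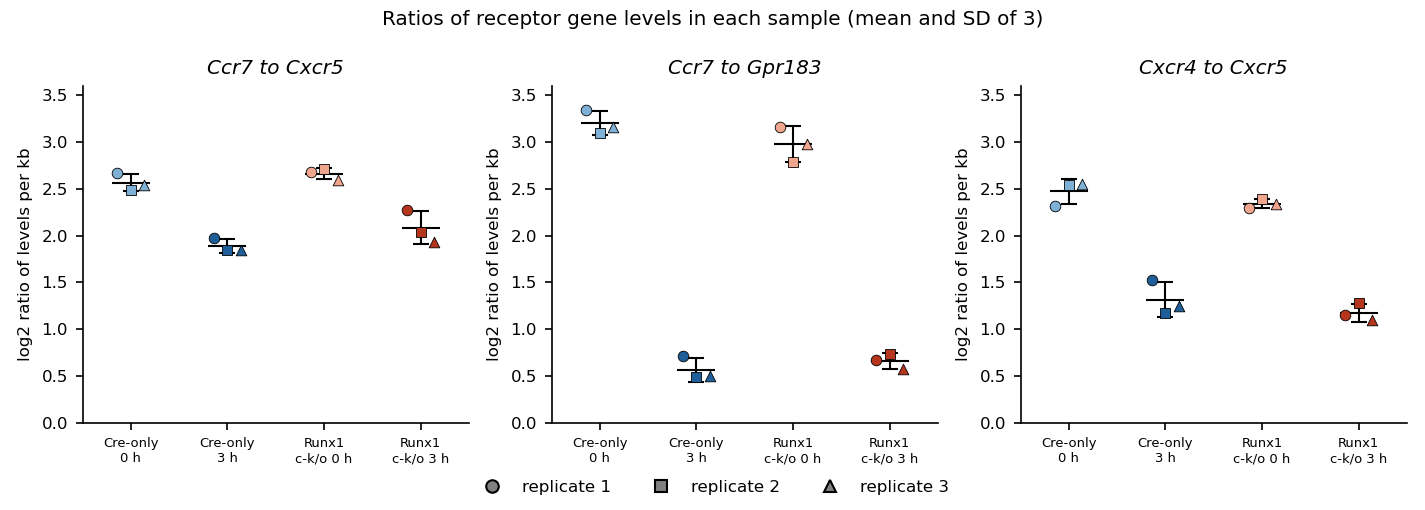
Log2 ratios of levels per kilobase for Ccr7 to Cxcr5, Ccr7 to Gpr183 and Cxcr4 to Cxcr5 in each sample; symbols mark the replicate number, and bars give the mean and SD of 3 samples. All 3 ratios are lower at 3 h than at rest in both genotypes, and Ccr7 to Gpr183 changes most.

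CXCR4 answers CXCL12, which holds cells in bone marrow niches and in the dark zone of the germinal centre. Cxcr4 (ENSMUSG00000045382, chromosome 1, 130484776 to 130488870, minus strand) stood at 1011, 1264 and 1166 CPM in the resting Cre-only group and at 368, 326 and 321 CPM after 3 h. In knockout samples it went from 980.0, 1016 and 1035 CPM to 326, 333 and 306 CPM. Resting and 3-h samples lay far apart, and the genotypes overlapped at each time. It fell 3.39-fold in Cre-only cells (log2 fold change −1.76, SE 0.106, edgeR adjusted p = 3.72e-08) and 3.14-fold in Runx1 c-k/o cells (−1.65, SE 0.106, edgeR adjusted p = 7.22e-08).

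Cxcr3, the receptor for the interferon-induced chemokines CXCL9, CXCL10 and CXCL11, was near the floor (ENSMUSG00000050232, chromosome X, 98926874 to 98929608, minus strand). The resting samples held 8, 16 and 14 counts in Cre-only and 11, 6 and 6 counts in knockout cells. After 3 h they held 4, 1 and 1 counts and 0, 2 and 2 counts. Every resting sample had more counts than every 3-h sample of its genotype. The level at 3 h over that at rest was 0.159 (95% counting interval 0.0548 to 0.378) in Cre-only and 0.173 (0.0436 to 0.508) in knockout cells. Replicate 1 holds 4 of the 6 counts of the 3-h Cre-only cells. The falls were called (edgeR adjusted p = 0.00147 in Cre-only and 0.00726 in knockout cells), and with 1 library left out the log2 fold changes ran from −3.30 to −2.39 and from −2.82 to −1.91. With the activation-aligned RUVs factor in the fit neither was (edgeR adjusted p = 0.600 and 0.617, against at most 0.0328 in every other alternative that tested the gene).

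The receptors for sphingosine-1-phosphate, which govern exit from lymphoid organs and recirculation, fell strongly. S1pr1 (ENSMUSG00000045092, chromosome 3, 115413351 to 115417973, minus strand) stood at 456, 492 and 448 CPM in the resting Cre-only group and at 114, 104 and 103 CPM after 3 h. In knockout samples it went from 575, 526 and 562 CPM to 128, 170.0 and 132 CPM. Both the resting and the 3-h samples of the knockout lay above all Cre-only samples of the same time. The fall was 4.34-fold in Cre-only cells (log2 fold change −2.12, SE 0.115, edgeR adjusted p = 2.26e-08) and 3.86-fold in Runx1 c-k/o cells (−1.95, SE 0.115, edgeR adjusted p = 4.69e-08).

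S1pr4, a receptor for the same lipid found mainly on lymphocytes and other blood cells, was lower throughout than S1pr1 per kilobase (ENSMUSG00000044199, chromosome 10, 80961223 to 80962452, minus strand). It stood at 29.2, 30.6 and 26.7 CPM in the resting Cre-only and 32.4, 29.7 and 32.3 CPM in the resting knockout samples. After 3 h the values were 9.75, 6.66 and 7.26 CPM in Cre-only and 6.95, 8.60 and 7.07 CPM in knockout samples. The times did not overlap and the genotypes did. S1pr4 fell 3.62-fold in Cre-only cells (log2 fold change −1.85, SE 0.141, edgeR adjusted p = 1.91e-07) and 4.18-fold in Runx1 c-k/o cells (−2.06, SE 0.143, edgeR adjusted p = 1.22e-07).

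Ccr6, the receptor for CCL20, places B cells near epithelia and at the edges of follicles and marks memory B cell precursors. The gene (ENSMUSG00000040899) lies on chromosome 17 of mm9, 8429077 to 8449992, plus strand. The resting Cre-only samples held 66.7, 77.2 and 74.2 CPM, and the 3-h Cre-only samples held 92.6, 115 and 125 CPM. Resting Runx1 c-k/o samples held 27.6, 18.4 and 26.5 CPM, and those at 3 h held 20.5, 26.5 and 34.6 CPM. All 6 Runx1 c-k/o samples lay below all 6 Cre-only samples. Within the Cre-only cells the 3-h samples lay above the resting ones, and within the Runx1 c-k/o cells the times overlapped. The rise in Cre-only cells was 1.53-fold (log2 fold change 0.61, SE 0.188, edgeR adjusted p = 0.0108). It was not called when only genes with at least 10 counts in every sample were kept (0.45, edgeR adjusted p = 0.0526), and over the 9 alternatives its adjusted p ran from 0.000993 to that value and its log2 fold change from 0.45 to 1.26. In knockout cells the log2 fold change was 0.17 (95% interval −0.26 to 0.60, edgeR adjusted p = 0.444). It was −0.03 without replicate 3 of the 3-h knockout cells (edgeR adjusted p = 0.889), and 0.84 with the activation-aligned RUVs factor (edgeR adjusted p = 0.0156, against 0.145 to 0.939 in the other alternatives).

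After 3 h the order per kilobase had changed. In Cre-only cells it ran Ccr7 (278), Gpr183 (188), Cxcr4 (187), Cxcr5 (75.1), Ccr6 (58.8), S1pr1 (35.4), S1pr4 (6.42) and Cxcr3, with Gpr183 and Cxcr4 overlapping and other neighbours apart. In Runx1 c-k/o cells it ran Ccr7 (336), Gpr183 (213), Cxcr4 (178), Cxcr5 (78.8), S1pr1 (47.4), Ccr6 (14.4), S1pr4 (6.13) and Cxcr3, with no neighbours overlapping. S1pr1 thus stood below Ccr6 in activated Cre-only cells and above it in activated Runx1 c-k/o cells.

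Cell type markers moved with activation too. Cd79a was at 349 CPM in Cre-only and 383 CPM in knockout cells at 3 h (log2 fold change −2.57 and −2.54, edgeR adjusted p = 4.02e-08 and 5.84e-08), and Ms4a1, Cd79b, Pax5 and Cd22 were also called lower in both genotypes. Fcer2a stood at 1116 and 1021 CPM at 3 h and was not called. Of the 7 myeloid markers (Lyz2, Csf1r, Adgre1, Itgam, Cd68, S100a8, S100a9) 5 fell in each genotype, and none was at 0 in a whole group. Their sum was 317, 267 and 325 CPM in the resting Cre-only group and 37.0, 27.9 and 31.2 CPM at 3 h. In knockout samples it went from 233, 452 and 362 CPM to 35.3, 60.6 and 30.9 CPM. Csf1r was the most abundant at rest (185 and 219.7 CPM) and Cd68 at 3 h (10.8 and 13.99 CPM). The T cell list summed to 39.0 to 46.2 CPM at rest and 70.1 to 79.5 CPM at 3 h in Cre-only cells, mostly Lck, and to 34.5 to 47.2 CPM and 74.6 to 95.8 CPM in Runx1 c-k/o cells. The dendritic cell list summed to between 29.4 and 38.9 CPM in every library, while its genes moved in opposite directions. In Cre-only cells Zbtb46 went from 1.452 to 17.8 CPM and Flt3 from 16.5 to 6.14 CPM, and 3 of its 5 genes were called there and 4 in the knockout. The part of B cell and other markers in the falls of Ccr7, Cxcr4, Cxcr5, S1pr1 and S1pr4 was not tested. In bulk RNA, fewer cells of a type and less RNA per cell cannot be told apart.

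The study asks what loss of RUNX1 does to resting B cells and to their early response to the B cell receptor. Between genotypes, 1 of the 8 receptors was called at rest, where 1.49% of all tested genes were, and it was Ccr6, lower in the knockout. At 3 h, 1 of the 8 was called, where 2.77% of all tested genes were, again Ccr6 and again lower. The shares of all tested genes called lower were 0.761% at rest and 1.3% at 3 h, and 0 members were called higher, against 0.731% and 1.47%. Members whose groups did not overlap were 2 at rest, Ccr6 and S1pr1, against 23.7% of all tested genes, and 3 at 3 h, Ccr6, Ccr7 and S1pr1, against 21.8%. The median log2 fold change of the members was 0.00 at both times, beside 0.03 and 0.01 over all tested genes.

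Ccr6 was at 72.7 ± 5.42 CPM in resting Cre-only and 24.1 ± 5.04 CPM in resting knockout cells (SD, n = 3 each). The difference was 3.01-fold (log2 fold change −1.59, SE 0.196, 95% interval −2.02 to −1.16, edgeR adjusted p = 0.00157), with 3 of 3 knockout samples below all controls. At 3 h the means were 111 ± 16.7 CPM and 27.2 ± 7.07 CPM (SD, n = 3 each). That difference was 4.08-fold (−2.03, SE 0.197, 95% interval −2.46 to −1.60, edgeR adjusted p = 0.000183), again with 3 of 3 samples below. By unadjusted p it took place 29 among the 202 genes called at rest and place 20 among the 375 called at 3 h. Without both libraries that stood apart, and with any 1 library left out, the call remained at both times.

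**Figure D4:**
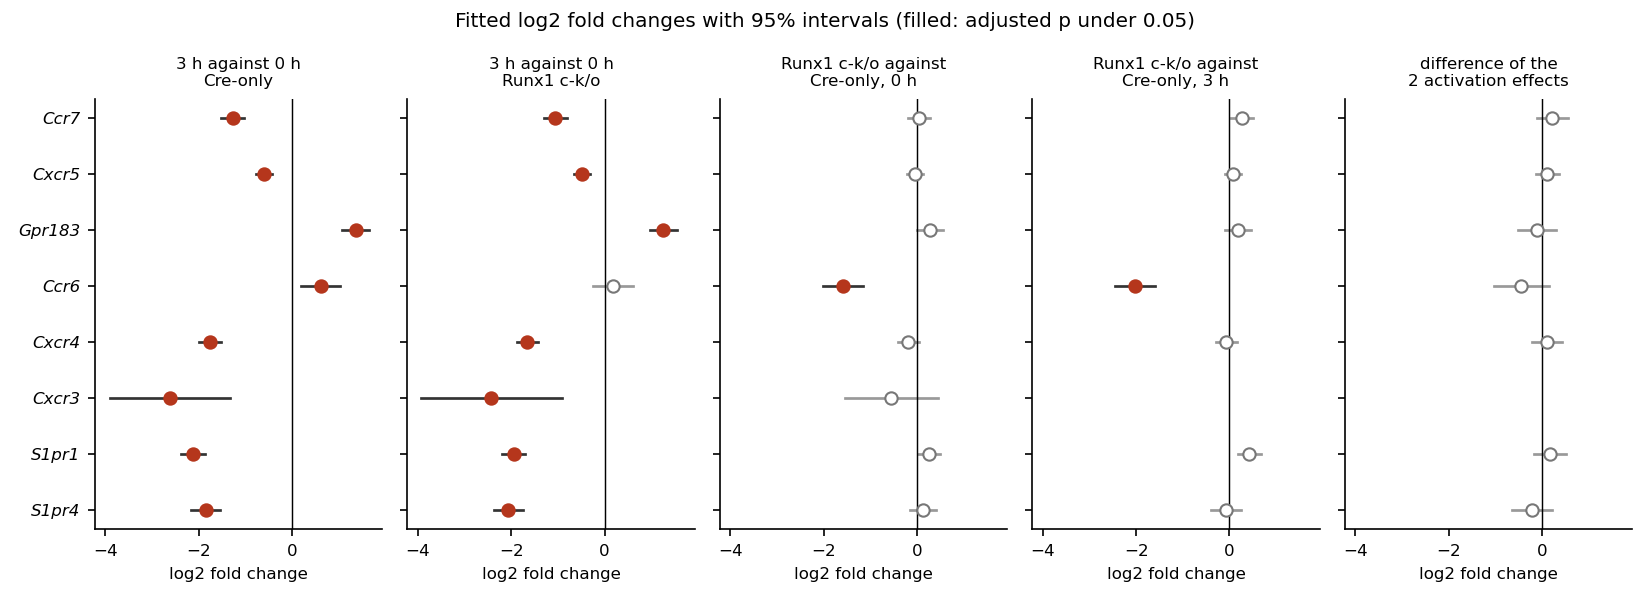
Fitted log2 fold changes (points) with 95% intervals (lines) of the 8 receptor genes in the 5 comparisons, filled points being those with an edgeR adjusted p under 0.05; Cxcr3 is not drawn in the last 2 panels, since its 3-h counts were near the floor in both genotypes. Ccr6 is the 1 receptor called between genotypes, at −1.59 at rest and −2.03 at 3 h, and no receptor is called for the difference of the activation effects.

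S1pr1 leaned the other way without being called. It was 1.19-fold higher in the knockout at rest (log2 fold change 0.25, 95% interval 0.01 to 0.49, edgeR adjusted p = 0.422) and 1.34-fold higher at 3 h (0.42, 95% interval 0.18 to 0.66, edgeR adjusted p = 0.0734), in 3 of 3 samples each time. At 3 h it passed the threshold without replicate 1 of the 3-h knockout cells (0.52, edgeR adjusted p = 0.0298), without replicate 3 of that group (0.48, edgeR adjusted p = 0.0480) and without both libraries that stood apart (0.52, edgeR adjusted p = 0.00492). It also did so with 1 RUVs factor (0.47, edgeR adjusted p = 0.00244) and with the DESeq2 Wald test (0.46, DESeq2 adjusted p = 0.00325), whereas the other 10 of 15 alternatives gave adjusted p values up to 0.246. The difference shrank to 0.28 without 3-h knockout replicate 2.

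None of the other receptors was called between genotypes at either time. Ccr7 was 1.21-fold higher in the knockout at 3 h (log2 fold change 0.27, 95% interval 0.03 to 0.51, edgeR adjusted p = 0.250), or 0.17 without 3-h knockout replicate 1, and was at 0.05 at rest (95% interval −0.19 to 0.29). Gpr183 had log2 fold changes of 0.28 at rest (95% interval −0.00 to 0.56, edgeR adjusted p = 0.456) and 0.18 at 3 h (95% interval −0.11 to 0.46), which were 0.17 without resting knockout replicate 2 and 0.08 without 3-h knockout replicate 1. Cxcr4 was at −0.18 at rest (95% interval −0.41 to 0.04) and −0.07 at 3 h (−0.30 to 0.15). With 1 library left out these ran from −0.267 to −0.106 and from −0.110 to −0.0080. Cxcr5 had the narrowest intervals, −0.22 to 0.13 at rest and −0.11 to 0.24 at 3 h. S1pr4 was at 0.13 (95% interval −0.16 to 0.41) and −0.08 (−0.40 to 0.24), and the latter was 0.11 without replicate 1 of the 3-h Cre-only cells. Cxcr3 was at −0.55 at rest (95% interval −1.55 to 0.45), and no fold is given at 3 h, where a difference was not detectable at this depth.

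The difference between the activation effects of the genotypes (the interaction) was called for 0 members by edgeR, where 0.0813% of all tested genes were called, 0.0665% higher and 0.0148% lower. The count was also 0 of 8 at an unadjusted p under 0.05, against 686 of 13538 genes, and the DESeq2 Wald test called 0 members. For Ccr6, whose rise was called in Cre-only and not in knockout cells, the interaction was −0.44 (95% interval −1.03 to 0.16, unadjusted p = 0.134, edgeR adjusted p = 0.999), so that the effects were not shown to differ. With 1 library left out it ran from −0.65 to −0.24. The interactions of the other receptors ran from −0.21 for S1pr4 to 0.22 for Ccr7, with Cxcr3 left out.

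Subset markers were read beside the Ccr6 difference. The marginal zone list (Cr2, Cd1d1, S1pr3, Dtx1, Cd9, Mzb1) had 0 of 6 genes called between genotypes at either time. Its sum was 1247, 1399.6 and 1555 CPM in resting Cre-only and 1774, 1809.7 and 1916 CPM in resting knockout samples, and Cr2 was its most abundant gene in every group. At 3 h it was 2346, 2635 and 2413 CPM against 2679, 2737 and 3349.95 CPM, so the sums lay higher in the knockout at both times. These sums are mostly Cr2, which was at 0.48 at rest and 0.31 at 3 h on the log2 scale. Cd9 (0.55 and 0.51), Mzb1 (0.47 and 0.50) and Cd1d1 (0.09 and 0.46) also leaned higher at both times. The remaining genes did not: Dtx1 was at −0.12 at rest and −0.14 at 3 h, and S1pr3 was at 0.60 at rest and −0.30 at 3 h. Of 4 germinal centre genes Mki67 was called, lower in the knockout at 3 h (log2 fold change −1.03, edgeR adjusted p = 0.0264), and it leaned lower at rest (−0.81, edgeR adjusted p = 0.117). Bcl6 (−0.22 and −0.17) and S1pr2 (−1.22 and −0.50) leaned lower at rest and at 3 h, as Ccr6 was, and Fas was at −0.33 and 0.09, with none of the 3 called. Of 4 plasma cell genes 1 was called, Sdc1, lower in the knockout at rest (−1.35, edgeR adjusted p = 0.00157), while Xbp1 (0.48) and Jchain (0.45) leaned higher there without being called. The sum of the 4 genes overlapped at rest, and at 3 h it was 286, 316 and 348 CPM in Cre-only against 438, 439 and 398 CPM in knockout samples, higher in each. That sum is mostly Xbp1, and Prdm1 (−0.23 at rest and −0.15 at 3 h) and at 3 h Sdc1 (−0.23) leaned lower without being called. No gene of the T cell, NK cell, myeloid, dendritic cell and erythroid lists or Fcer2a was called between genotypes. The erythroid list summed to 36.1 to 253 CPM in resting Cre-only and 246 to 409.7 CPM in resting knockout libraries, mostly Hbb-b1. By flow cytometry of spleens, the paper reports a trend to more marginal zone cells in the knockout, and no substantial change in subset proportions. It also reports more surface CD21, which Cr2 encodes, and holds a rise within follicular cells to be the likely source. The part of subset composition in the Ccr6 difference was not tested.

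Promoters of 3 receptors are shown, that of Ccr6 because it differed in cells without RUNX1, and those of Cxcr4 and Gpr183 because they moved in opposite directions on activation. RefSeq promoter sequences of build GRCm38.p6, from 250 bases before to 50 bases after the start, were held for 5 of the 8 members with 6 starts (Ccr6, Cxcr3, Cxcr4, Gpr183, S1pr4). The core motif of RUNX proteins, TGTGGT, or ACCACA on the other strand, is in capitals. The first Ccr6 start lies at chr17:8235793-8236092 and the second at chr17:8242276-8242575, both on the plus strand, that of Cxcr4 at chr1:128592250-128592549 and that of Gpr183 at chr14:121965144-121965443, both on the minus strand.
Ccr6, first start: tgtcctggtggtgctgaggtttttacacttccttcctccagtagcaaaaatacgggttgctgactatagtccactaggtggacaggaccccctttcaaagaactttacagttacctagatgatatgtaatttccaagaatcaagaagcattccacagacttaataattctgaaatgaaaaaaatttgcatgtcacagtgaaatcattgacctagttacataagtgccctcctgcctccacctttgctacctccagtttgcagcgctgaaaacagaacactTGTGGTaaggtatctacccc
Ccr6, second start: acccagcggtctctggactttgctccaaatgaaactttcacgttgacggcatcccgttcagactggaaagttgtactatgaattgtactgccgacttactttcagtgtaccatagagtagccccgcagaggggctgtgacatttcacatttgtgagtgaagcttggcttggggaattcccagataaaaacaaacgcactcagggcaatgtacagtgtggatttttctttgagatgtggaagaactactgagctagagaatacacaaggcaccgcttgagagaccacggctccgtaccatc
Cxcr4: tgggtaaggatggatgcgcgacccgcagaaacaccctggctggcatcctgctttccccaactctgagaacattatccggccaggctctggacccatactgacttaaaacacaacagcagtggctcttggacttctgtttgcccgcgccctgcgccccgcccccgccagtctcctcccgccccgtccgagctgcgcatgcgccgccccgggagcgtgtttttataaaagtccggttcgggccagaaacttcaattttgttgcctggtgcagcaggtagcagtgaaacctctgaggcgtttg
Gpr183: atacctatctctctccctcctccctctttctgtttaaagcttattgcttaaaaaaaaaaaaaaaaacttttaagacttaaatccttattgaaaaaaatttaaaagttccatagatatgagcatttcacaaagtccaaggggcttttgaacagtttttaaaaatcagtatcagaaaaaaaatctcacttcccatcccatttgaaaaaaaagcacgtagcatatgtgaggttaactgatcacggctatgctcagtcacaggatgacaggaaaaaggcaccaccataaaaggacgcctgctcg
The first Ccr6 window holds 1 match, 30 bases after the start, and the second holds 0, as do those of Cxcr4, Gpr183 and S1pr4. Cxcr3, which was not called between genotypes, has 2 matches. In all, 2 of the 6 windows hold the motif, beside 16.8% of the 32851 promoters of the same length. A match describes these letters and is no evidence of binding. The paper lists Ccr6 among genes lower in the knockout at both times. From its ChIP-seq of resting B cells, it reports RUNX1 peaks near promoters and putative enhancers of that set of genes.

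The receptors are alike in the build of their genes. Their coding lengths lie between 1071 and 1158 bases. Ccr6, Gpr183, S1pr1 and S1pr4 have 1 coding exon, 4 of 8 members against 18% of 22337 protein-coding genes. In all 8, at least 90% of the coding length lies in 1 exon, against 20.1% of those genes, a layout known for many G protein-coupled receptors. They lie on 8 different chromosomes.

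The genes most like each receptor over the 12 samples, among 8429 genes with a mean of at least 10 CPM, are given by Pearson r of log2 levels as a description. Since samples fall into resting and 3-h clusters, r mostly reads the shared change on activation. For Ccr6, which instead separated the genotypes, they were Kremen1 (r = 0.980), Fbxo38 (0.961) and Tnik (0.958), and Kremen1 had means of 31.3 and 34.4 CPM in resting and 3-h Cre-only cells and 24.9 and 25.6 CPM in Runx1 c-k/o cells. S1pr1 was most like Fam101b (0.998), Sla and Sidt1. S1pr4 was most like Elmod3 (0.996), Foxo4 and Hdac7. Gpr183 was most like Gnpnat1 (0.997), Tmem69 and Prdx3, which were higher at 3 h. For Ccr7 they were Btg1 (0.993), Sept1 and Pold4, for Cxcr4 Pcca (0.997), Lpcat1 and Apobec3, for Cxcr5 Galnt1 (0.992), Armcx5 and Dnajb9, and for the sparse Cxcr3 Vamp1 (0.948), Ffar1 and Dusp16.

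The ligands of the receptors were scarce in these cells. Ccl20, the ligand of Ccr6, and Ccl21a and Cxcl11 had 0 counts in all 12 samples. Ccl19 and Ch25h, whose enzyme starts the synthesis of the Gpr183 ligand, had at most 1 count in a sample, and Cxcl13, the ligand of Cxcr5, had at most 8. Cxcl12, the ligand of Cxcr4, had 4 to 14 counts in the resting and 0 to 2 counts in the 3-h samples. Its level at 3 h over rest was 0.179 (95% counting interval 0.0541 to 0.471) in Cre-only and 0.0688 (0.00795 to 0.272) in knockout cells, and both falls were called (edgeR adjusted p = 0.00491 and 0.000861). Cxcl9, a ligand of Cxcr3, was likewise called lower at 3 h, with ratios of 0.0601 (0.0237 to 0.128) and 0.0863 (0.0384 to 0.170). With 1 library left out its log2 fold changes ran from −4.89 to −3.72 and from −4.08 to −3.12, and those of Cxcl12 from −2.61 to −1.93 and from −4.06 to −3.09. Cxcl10 fell in Cre-only cells (log2 fold change −1.70, edgeR adjusted p = 0.00639), a call lost with the activation-aligned RUVs factor (edgeR adjusted p = 0.131), and with 1 library left out its log2 fold change ran from −2.78 to −1.20. In the knockout Cxcl10 was at 0.08 (edgeR adjusted p = 0.879), and at −0.03 when scaled by library totals only. There it was −0.08 without resting replicate 1, −0.06 without 3-h replicate 2 and −0.00781 without 3-h replicate 3.

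Genes that make, move or break down the receptors' lipid ligands were read in 1 list with the chemokines. The lists were counted and not tested as groups, and of all tested genes 38.6% rose and 36.4% fell in Cre-only and 37.7% rose and 36.6% fell in knockout cells. Of the 22 ligand and ligand enzyme genes 15 were tested, of which 5 rose and 9 fell in Cre-only cells and 6 rose and 8 fell in Runx1 c-k/o cells. Sgpl1, the lyase that breaks down sphingosine-1-phosphate, went from 119 ± 2.30 to 378 ± 18.6 CPM in Cre-only cells (SD, n = 3 each; log2 fold change 1.66, edgeR adjusted p = 8.62e-08), whereas Spns2, an exporter of that lipid, went from 46.5 ± 3.74 to 0.757 ± 0.477 CPM (SD, n = 3 each; −5.98, edgeR adjusted p = 1.6e-06). In knockout cells the log2 fold changes were 1.39 for Sgpl1 and −4.77 for Spns2 (edgeR adjusted p = 3.77e-07 and 5.19e-06), and without 3-h replicate 2 that of Spns2 was −6.77.

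Regulators of egress and homing moved in both directions. Of 16 genes 15 were tested, and 4 rose and 10 fell in each genotype (93.3% called in each, against 75% and 74.3% of all tested genes), with a median of −1.74 in Cre-only and −1.62 in knockout cells. Klf2, whose protein can drive S1pr1 transcription, went from 955 ± 102 to 18.2 ± 2.13 CPM in Cre-only cells (SD, n = 3 each; log2 fold change −5.71, edgeR adjusted p = 5.73e-07) and from 1158 ± 5.97 to 42.6 ± 35.3 CPM in knockout cells (SD, n = 3 each; −4.77, edgeR adjusted p = 1.9e-06). Without 3-h replicate 2 the latter was −5.67, near the Cre-only value. The part of Klf2 in the fall of S1pr1 was not tested. Foxo1, which acts upstream of Klf2 and Ccr7, fell by 2.06 and 2.01 on the log2 scale (edgeR adjusted p = 4.16e-08 and 6.55e-08). Cd44, an adhesion receptor for hyaluronan, rose by 2.70 and 2.37 (edgeR adjusted p = 7.5e-08 and 2.15e-07). Cd69, whose protein binds S1PR1 and removes it from the surface, was at 689 ± 34.0 CPM at rest and 535 ± 48.1 CPM at 3 h in Cre-only cells (SD, n = 3 each). Its log2 fold change there was −0.36 (edgeR adjusted p = 0.0326), which did not pass with a block for replicate number (edgeR adjusted p = 0.0534, or 0.0547 with the block within genotype). It did not pass without replicates 2 or 3 of the resting cells (edgeR adjusted p = 0.0833 and 0.0928) or replicates 1 or 3 of the 3-h cells (0.123 and 0.0878). In Runx1 c-k/o cells it was −0.11 (edgeR adjusted p = 0.490), and −0.33 without 3-h replicate 1 (edgeR adjusted p = 0.00492). It was −0.34 without both libraries that stood apart (edgeR adjusted p = 0.000702), −0.61 with the activation-aligned RUVs factor (0.00160) and 0.0030 without 3-h replicate 2 (0.986), and the other fits gave 0.0803 to 0.916.

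The signaling parts beneath the receptors were called about as often as all genes. Of 36 G protein and effector genes 34 were tested, and 7 rose and 18 fell in Cre-only and 8 rose and 19 fell in knockout cells (73.5% and 79.4% called, against 75% and 74.3% of all tested genes). Gnai2, the main inhibitory G protein subunit of chemokine receptors, went from 561 ± 16.2 to 183 ± 8.99 CPM in Cre-only cells (SD, n = 3 each; log2 fold change −1.61, edgeR adjusted p = 4.15e-08) and fell by 1.74 in Runx1 c-k/o cells (edgeR adjusted p = 4.22e-08). All 20 genes of receptor desensitization were tested, of which 1 rose and 14 fell in Cre-only and 0 rose and 16 fell in knockout cells (75% and 80% called). Rgs1, which ends chemokine receptor signals, fell by 2.89 and 2.81 on the log2 scale (edgeR adjusted p = 1.4e-07 and 2.18e-07), and the receptor kinase Grk2 by 2.04 and 1.87 (edgeR adjusted p = 9.38e-09 and 1.88e-08). Between genotypes, where 1.49% of all tested genes were called at rest and 2.77% at 3 h, 2 effector genes at rest were called higher in the knockout and 2 desensitization genes lower, of which 1 was also lower at 3 h. Pik3r6, from 0.406 to 1.78 CPM, was the effector with the smaller p (log2 fold change 2.12, edgeR adjusted p = 0.00753), and without Cre-only replicate 1 or 2 the adjusted p by edgeR was 0.0539 or 0.0526. The other calls were lost in 5 or 6 of the 6 fits that left out 1 library.

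Other chemoattractant receptors also changed. Of 18 other chemokine receptors 13 were tested, and 2 rose and 9 fell in Cre-only and 3 rose and 9 fell in knockout cells (84.6% and 92.3% called, against 75% and 74.3% of all tested genes). Ccr9, the gut homing receptor, rose by 2.65 and 2.70 on the log2 scale (edgeR adjusted p = 8.79e-08 and 2.16e-07), whereas Ackr3, the scavenger of CXCL12, fell by 2.34 and 2.35 (edgeR adjusted p = 2.43e-06 and 1.89e-06). At 3 h 2 of these receptors were called higher and 1 lower in the knockout, against 2.77% of all tested genes called, each call being lost in 3 or 4 of the 6 fits that left out 1 library. Of 28 lipid and nucleotide receptors 22 were tested, and 5 rose and 15 fell in Cre-only and 4 rose and 14 fell in knockout cells (90.9% and 81.8% called). S1pr3, also a marginal zone marker, rose by 2.90 and 1.99 (edgeR adjusted p = 7.83e-08 and 1.26e-06), opposite to S1pr1 and S1pr4, and P2ry10, a receptor for lysophospholipids, fell by 2.96 and 3.02 (edgeR adjusted p = 1.71e-08 and 2.52e-08). Gpr171 was lower in the knockout at rest, 51.3 ± 5.86 against 97.4 ± 2.57 CPM (SD, n = 3 each; log2 fold change −0.93, edgeR adjusted p = 0.00157), and at 3 h (−1.15, edgeR adjusted p = 0.000199), as Ccr6 was. Cnr2 was higher at rest (0.75, edgeR adjusted p = 0.00919), with adjusted p of 0.0509, 0.0574 and 0.0501 by edgeR without replicate 1 or 3 of the Cre-only or replicate 3 of the Runx1 c-k/o cells. The ligand and regulator lists had 0 genes called between genotypes, and the interaction was called for 0 genes in each of the 6 lists.

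**Figure D5:**
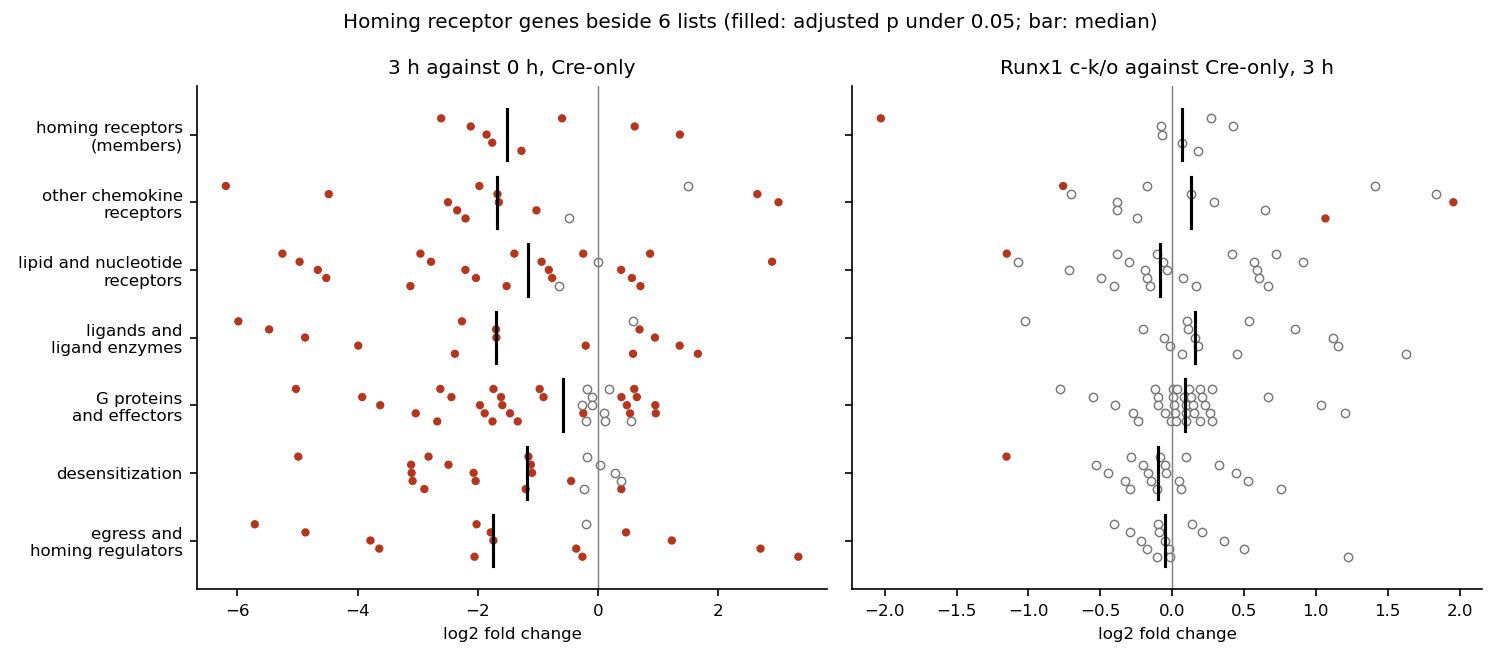
Fitted log2 fold changes of the 8 receptor genes and of the tested genes of 6 lists on activation of Cre-only cells (left) and between genotypes at 3 h (right, Cxcr3 left out); each point is a gene, filled where the edgeR adjusted p is under 0.05, and black bars are medians. On activation most lists lie below 0, as the receptors do, and between genotypes Ccr6 lies lowest.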

How the data were processed

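Poly(A)-selected RNA of 12 samples was sequenced from stranded libraries. The authors aligned the reads with TopHat2 2.0.11 to mm9 (NCBIM37) with Ensembl annotation and counted them per gene with featureCounts, and the deposited values are these raw read counts, without normalization. The strand setting and the handling of reads with several alignments are not stated. ERCC RNA was added to the lysates, but the deposited counts hold 0 ERCC rows, so scaling by it was not possible here. In R 4.3.3, genes were filtered with filterByExpr of edgeR 4.0.16 (minimum count 10), scaled by TMM (factors 0.886 to 1.07) and fitted with robust quasi-likelihood, 1 term for each of 4 groups. Standard errors are the log2 fold change over the square root of F, with 95% intervals from the residual degrees of freedom. Counting intervals are for the ratio of summed counts. Levels per kilobase use the union of exons in the GENCODE annotation of mm9. Tables were made with Python 3.11.15 and pandas 2.3.3.

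The members and lists were chosen with earlier results of these data known. Named genes were all members, in each list and comparison at most 5 called genes with the smallest adjusted p in each direction, and, whatever their values, the members' ligand genes and Klf2, Foxo1, Cd69, Rgs1 and Gnai2. Of the genes that rule allows, examples are given. Some genes of the lists are withheld and not reported here. The alternatives were DESeq2 size factors, the Wald test of DESeq2 1.42.0, library totals, no filter, at least 10 counts in every sample, 1 RUVs factor, a block for replicate number overall or within genotype, only the groups compared, the longest transcript as length, and each library left out. The fit without both libraries that stood apart was chosen after seeing the data. The code was tested on simulated data.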

Additional observations from a re-analysis of the deposited data

How the results depend on the processing

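Over the 9 or 10 alternatives and the fits that left out 1 library each, the number of members called ran from 6 to 8 on activation of Cre-only cells, from 6 to 7 on activation of Runx1 c-k/o cells, stayed at 1 at rest between genotypes, ran from 1 to 2 at 3 h between genotypes and stayed at 0 for the interaction. At 3 h the count was 2, with S1pr1 added to Ccr6, with 1 RUVs factor (2), with the DESeq2 Wald test (2) and without both libraries that stood apart (2), and from 1 to 2 with each library left out in turn. Their cause was not tested. Ccr6 was called between genotypes in 15 of 15 alternatives at rest (adjusted p up to 0.0113) and in 15 of 15 at 3 h (up to 0.00888).

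With 6 members called on activation of Cre-only cells, the filter of at least 10 counts in every sample left Cxcr3 untested and Ccr6 uncalled (0.45). A block for replicate number changed no member's call. Of 615 member values under alternatives, 603 kept their direction and side of the threshold, 3 lost the call, 6 gained it and 3 changed sign. Those 3 were not called: Ccr6 on activation of Runx1 c-k/o cells without replicate 3 at 3 h (−0.031; up to 0.32 without replicate 1 at 3 h), Gpr183 in the interaction without replicate 2 of resting Runx1 c-k/o cells (0.0045; down to −0.188 without replicate 1) and S1pr4 between genotypes at 3 h without replicate 1 of Cre-only cells (0.11; down to −0.185 without replicate 2). Of 1884 list gene values 86 lost the call, 3 gained it and 7 changed sign: with 1 RUVs factor, which is aligned with activation, Gpr171 on activation of Runx1 c-k/o cells (−0.054) and Rgs19 on activation of Cre-only cells (−0.051), and on activation of Runx1 c-k/o cells Cxcl10 with library totals only (−0.031), without resting replicate 1 (−0.081; up to 0.28 without 3-h replicate 1) and without 3-h replicate 2 (−0.060) or 3 (−0.00781), and Cd69 without 3-h replicate 2 (0.0030; down to −0.33 without 3-h replicate 1). Their causes were not tested. Scaling by library totals moved the median of all genes on activation from 0.03 to −0.10 in Cre-only and from 0.00 to −0.11 in Runx1 c-k/o cells, and no member changed direction or call. With the longest transcript as length, the resting Cre-only level of Ccr6 was 41.4 in place of 38.5 CPM per kilobase and the order of members did not change. Depth limits Cxcr3, whose 3-h groups hold 6 and 4 counts in all.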

Other observations

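The 2 Runx1 c-k/o libraries that stood apart resembled each other. After the group means were removed, replicate 2 at rest and replicate 1 at 3 h had a Pearson r of 0.477 over 13538 genes, the highest of the 9 pairs of resting and 3-h libraries of this genotype, whereas libraries of the same number had −0.254, −0.264 and 0.254. In Cre-only cells the libraries of the same number had 0.2755, 0.176 and 0.144, and the other 6 pairs lay between −0.192 and 0.00479. These are correlations across genes, which are not independent replicates. In these 2 libraries Gpr183 was the highest of its group (299 and 726 CPM). Ccr6 (18.4 and 20.5 CPM), S1pr1 (526 and 128 CPM) and S1pr4 (29.7 and 6.95 CPM) were the lowest. The sparse Cxcr3 was too (0.388 and 0 CPM), although resting replicates 2 and 3 both held 6 counts. Cxcr5 was the lowest at rest (279 CPM) and the highest at 3 h (212 CPM). Ccr7 was in the middle at rest (1385 CPM) and the highest at 3 h (780 CPM), and Cxcr4 was in the middle at both times (1016 and 326 CPM).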
